A study of Mus musculus with 66 samples.

Results

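Germinal centre (GC) B cells cultured with anti-CD40, an antibody that triggers the receptor CD40, were compared with GC B cells cultured for the same time without stimulus. The comparison rests on 8 of the 66 libraries of the series. Each combination of stimulus (anti-CD40 or none) and time (2 h or 4 h) had 2 libraries. Only the anti-CD40 libraries with replicate numbers 4 and 5 were used, because their titles and low values place them in the same set as the controls. Libraries were paired by the number in their file headers. Pair 1 joins control replicate 1 with anti-CD40 replicate 4, and pair 2 joins control replicate 2 with anti-CD40 replicate 5. All cells, with or without anti-CD40, came from the spleen of BALB/c mice with a transgenic B1-8 antigen receptor of the IgM class (named MEG in the labels), so both arms carry the same receptor, and were purified with beads. The wider series treated GC and naive B cells with antibodies to CD40 or IgM, with IL-21 or with combinations, and 8 naive libraries of the same titles served here to ask where the GC response differed. The labels used here give neither the animals' age nor the number of mice behind the replicates. The p-values therefore reflect only how far these libraries spread, and that spread may be technical.

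CD40 is a receptor of the tumour necrosis factor (TNF) receptor family on B cells, and its ligand is displayed by T cells. Bound CD40 recruits TRAF adaptor proteins and cIAP ubiquitin ligases, which switch on the canonical and the non-canonical arm of the transcription factor NF-kB. In the germinal centre, the site of antibody mutation and selection, this signal is known for survival and for induction of the growth regulator Myc.

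Expression is the deposited log2 value, which back-transformed summed to between 926830 and 954541 per library. Library size is not the only scaling behind these values: Cd74 held exactly 1 value in all 4 libraries of a header number, and low values of some genes were specific to the header number. How they were made is not given in the sources used here, so a log2 difference may not be the log2 ratio of read counts. Sequencing depth is unknown, so no value carries a counting interval. Over all 23420 genes, libraries of the same stimulus and time correlated at 0.983 to 0.987 and all pairs of libraries at 0.975 to 0.994. In the controls the labelled cell type held. The summed linear level of 8 GC markers was 2490 to 3670 in the control GC libraries and 71.9 to 131 in the control naive libraries. With anti-CD40 it was 1100 to 2300 in the GC libraries. Naive B cell markers summed to 422 to 735 in the GC controls, 1050 to 2090 in GC libraries with anti-CD40 and 3860 to 4480 in the naive controls. Of the 8 naive markers tested 2 rose and 3 fell. B cell markers summed to 5860 to 10300 without stimulus and 5850 to 8810 with anti-CD40. Of 8 T cell markers found in the files, Cd3d, Cd3e, Cd3g, Cd4, Cd8a and Cd8b1 were not above a log2 value of 1 in any of the 8 GC libraries, and the list's sum (149 to 232 without and 126 to 279 with anti-CD40) was mostly Lck. Myeloid markers summed to 233 to 318 without and 91.3 to 252 with anti-CD40, erythroid markers to 54.4 to 135 and 34.4 to 97.5, plasma cell markers to 1140 to 1980 and 420 to 1840, and stromal markers to 35.4 to 56.5 and 23.1 to 53.3. Itgam, Cd14, Fcer1g and S100a9 of the 10 myeloid markers, Hba-a1 and Hba-a2 of the 5 erythroid markers found, Tnfrsf17 of the 6 plasma cell markers and 6 of the 7 stromal markers stayed at or under a log2 value of 1 in all 8 libraries. The part of these cells in the results was not tested, and in bulk RNA fewer cells of a type and less RNA per cell cannot be told apart.

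Anti-CD40 changed 2318 of 9910 genes tested (23.4%, limma, Benjamini-Hochberg adjusted p under 0.05). Of these, 1104 rose (11.1%) and 1214 fell (12.3%), and the median effect over all tested genes was -0.0191 on the log2 scale. An effect here is the anti-CD40 minus control difference in log2 values, averaged over 2 h and 4 h and given ± its standard error. Among called genes 350 genes rose and 298 fell by at least 1, and 96 rose and 26 fell by at least 2. In 748 genes (7.55%) all 4 anti-CD40 libraries lay above all 4 controls, and in 693 genes (6.99%) all lay below. Without the pairing term 776 genes were called in place of 2318. Of 179 called genes that were chosen by rule or are described below, 66 lost the call without the pairing term, 33 without the filter on low values and 52 in at least 1 fit that left out a library. Leaving out the anti-CD40 4 h library of pair 1 left 1077 calls, and leaving out the control 4 h library of pair 2 left 1272.

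The receptor's own gene rose, with a few of its adaptors. Cd40 (chromosome 2, 165055627 to 165072948, GRCm38) stood at 6.47 and 6.72 without stimulus at 2 h and at 6.20 and 6.32 at 4 h (log2, pair 1 before pair 2 here and below). With anti-CD40 it stood at 8.25 and 8.92 at 2 h and at 8.33 and 8.88 at 4 h. The arms did not overlap, and Cd40 rose by 2.17 ± 0.14, or 4.51-fold (adjusted p = 1.71e-05). Traf1, an adaptor that binds TRAF2 and the cIAPs, lay at 5.63 to 6.08 in the controls and within the narrow range of 8.58 to 8.69 with anti-CD40, a rise of 2.79 ± 0.12. The cIAP genes Birc2 and Birc3, which encode ubiquitin ligases of the receptor complex, rose by 1.39 ± 0.17 and 2.30 ± 0.21. Traf5, another adaptor of CD40, fell by 0.71 on the log2 scale, a call lost without the pairing term (adjusted p = 0.0753). The other 12 of 17 listed members, among them Traf2, Traf3, Traf6, the kinase genes Map3k14 and Map3k7, and the IkB kinase genes Chuk, Ikbkb and Ikbkg, did not pass, with effects from -0.52 (Map3k14) to 0.32 (Fam105b, the file's symbol for Otulin). The median over the list was 0.04.

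**Figure D1:**
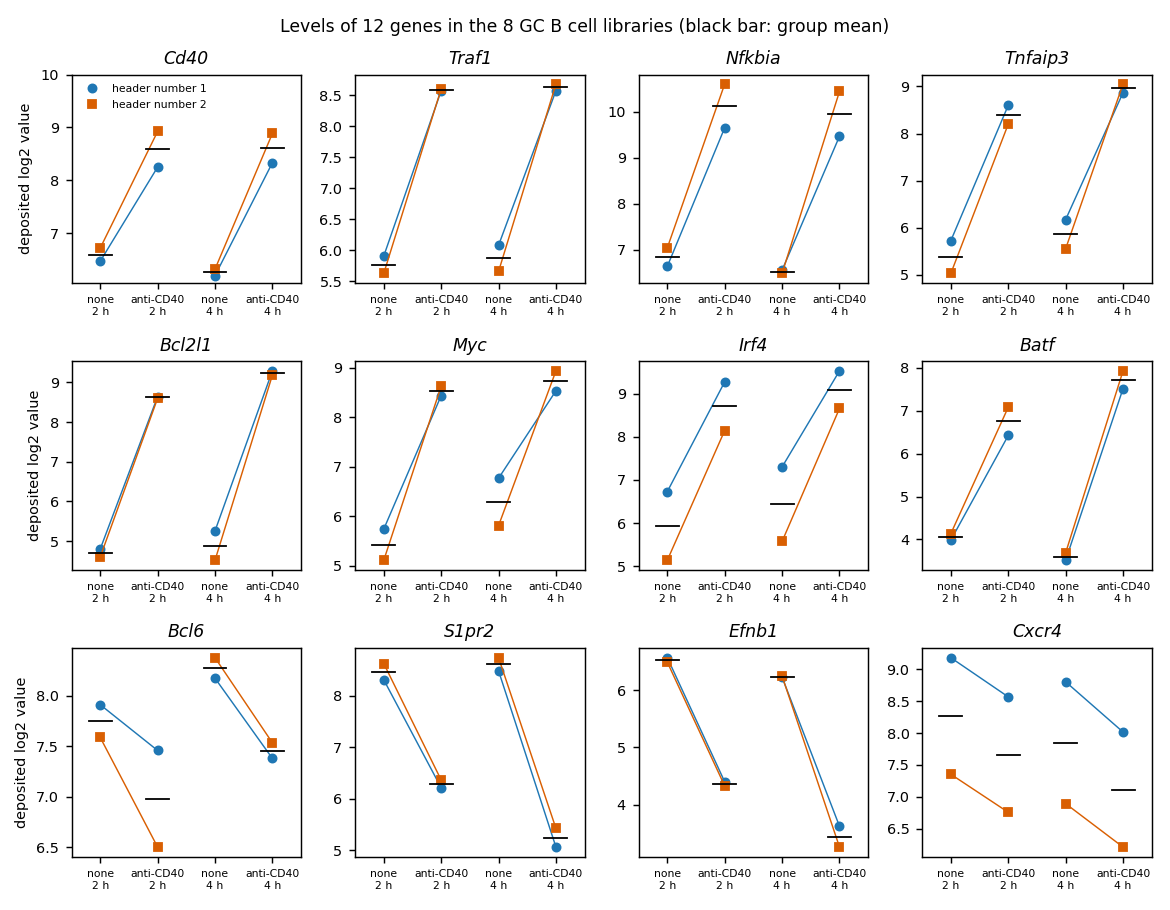
Deposited log2 values (vertical axes, each with its own range) of 12 genes in the 8 GC B cell libraries, by stimulus and time. Circles and squares are header numbers 1 and 2, lines join the libraries of a pair and black bars are the means of 2 libraries. Cd40, Traf1, Nfkbia, Tnfaip3, Bcl2l1, Myc, Irf4 and Batf lay higher in all 4 anti-CD40 libraries than in any control, and Cxcr4 was lower within each pair although its arms overlapped.

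NF-kB subunit genes rose, those of the non-canonical arm most. Of the 5 subunit genes 4 rose (median over the list 0.618). Nfkb2 and Relb, the subunits of the non-canonical arm, rose by 1.77 ± 0.21 and 1.49 ± 0.13, while Rela and Nfkb1 of the canonical arm rose by 0.62 ± 0.11 and 0.61 ± 0.16. The rises of Rela and Nfkb1 were lost without the pairing term (adjusted p = 0.0631 and 0.312), and that of Nfkb1 also in 4 of 8 fits that left out 1 library (controls of pair 1 at both times, the 4 h control of pair 2 or the 4 h anti-CD40 library of pair 1). Rel did not pass when the times were averaged. Its effect was 1.01 at 2 h and -0.03 at 4 h, and these differed (adjusted p = 0.0347). That difference was lost without the pairing term (adjusted p = 0.941) and without any library but the anti-CD40 libraries of 2 h.

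Of 12 genes for IkB proteins and other feedback inhibitors 6 rose and 1, the deubiquitinase gene Cyld, fell (median 0.923). The fall of Cyld was lost without the pairing term (adjusted p = 0.0836) and in 5 of 8 fits that left out 1 library (either 2 h control, the 4 h control of pair 2 or either anti-CD40 library of 4 h). Nfkbia, which encodes the inhibitor IkBa, stood at 6.64, 7.05, 6.56 and 6.49 in the controls (2 h, then 4 h) and at 9.65, 10.60, 9.47 and 10.44 with anti-CD40. The arms lay far apart, and it rose 10.2-fold, by 3.36 ± 0.18. Tnfaip3, which encodes the ubiquitin-editing inhibitor A20, ranged from 5.03 to 6.17 without and from 8.20 to 9.05 with anti-CD40 and rose by 3.06 ± 0.15. The other 4 that rose belong to the IkB family, as IkBa does: Nfkbie (2.41 ± 0.13), Nfkbib (1.37 ± 0.11), Bcl3 (1.37 ± 0.14, with overlapping arms) and Nfkbiz (1.34 ± 0.17). The IkB family gene Nfkbid did not pass over both times, but its effects of 1.38 at 2 h and -0.37 at 4 h differed (adjusted p = 0.0135), a call lost without the pairing term (adjusted p = 0.551), without either 2 h control and without the anti-CD40 4 h library of pair 2. In Nfkbia and Tnfaip3 the effects at 4 h exceeded those at 2 h by 0.14 and 0.08, which did not pass the test between times.
The promoters of 4 members of the NF-kB lists that rose are shown because they hold a match to a form of the NF-kB binding motif (GGG, any 2 bases, then TTTCC), searched on both strands. They are the 300 bases from 250 before to 50 after a RefSeq start (GRCm38.p6), written 5′ to 3′ on the gene's strand with the match in capitals. Of 2 such promoters of Tnfaip3 only 1, shown here, holds a match, while all 3 of Nfkb2 hold it. Nfkbia is at chr12:55492598-55492897 on the minus strand, Tnfaip3 at chr10:19015361-19015660 on the minus strand, Nfkb2 at chr19:46304487-46304786 on the plus strand and Ltb, which encodes lymphotoxin beta, at chr17:35194257-35194556 on the plus strand.
Nfkbia: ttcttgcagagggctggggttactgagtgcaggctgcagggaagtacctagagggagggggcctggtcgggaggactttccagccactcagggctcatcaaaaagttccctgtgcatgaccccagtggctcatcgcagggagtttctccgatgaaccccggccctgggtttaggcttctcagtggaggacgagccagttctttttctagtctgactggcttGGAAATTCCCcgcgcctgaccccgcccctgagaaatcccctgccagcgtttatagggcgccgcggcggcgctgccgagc
Tnfaip3: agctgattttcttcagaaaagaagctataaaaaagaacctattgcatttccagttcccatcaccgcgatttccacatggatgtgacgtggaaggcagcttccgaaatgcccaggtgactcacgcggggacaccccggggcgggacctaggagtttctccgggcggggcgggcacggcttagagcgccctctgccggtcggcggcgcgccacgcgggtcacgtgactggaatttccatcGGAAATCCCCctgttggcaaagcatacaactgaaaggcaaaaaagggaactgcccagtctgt
Nfkb2: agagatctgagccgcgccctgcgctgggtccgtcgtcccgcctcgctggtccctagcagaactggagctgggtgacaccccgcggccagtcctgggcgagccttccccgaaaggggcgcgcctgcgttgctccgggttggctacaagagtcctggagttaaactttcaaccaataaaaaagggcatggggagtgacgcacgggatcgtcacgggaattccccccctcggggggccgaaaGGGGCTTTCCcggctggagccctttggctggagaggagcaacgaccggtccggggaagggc
Ltb: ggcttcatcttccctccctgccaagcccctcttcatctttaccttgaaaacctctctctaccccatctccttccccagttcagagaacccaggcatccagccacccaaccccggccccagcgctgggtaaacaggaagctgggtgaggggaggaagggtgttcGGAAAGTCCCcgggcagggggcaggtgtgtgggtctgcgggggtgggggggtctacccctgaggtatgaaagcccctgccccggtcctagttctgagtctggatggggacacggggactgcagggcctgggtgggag
Counted from the start site, the matches begin at -29 in Nfkbia, -12 in Tnfaip3, -11 in Nfkb2 and -87 in Ltb. The motif stood in 535 of all 32851 promoters of that length (1.63%). The shares that follow are of genes, counted where any promoter of the gene held a match, so they are not like that share. Among tested genes with a promoter in the table it stood in 31 of 821 that rose (3.78%), 17 of 939 that fell (1.81%) and 104 of 5761 that did not pass (1.81%). Of the 34 tested NF-kB list genes with a promoter 6 held it (17.6%), and of the 24 that rose 4 did (16.7%). The rise of Ltb was lost without the pairing term (adjusted p = 0.107). A match is a run of letters and was not tested as a binding site.

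**Figure D2:**
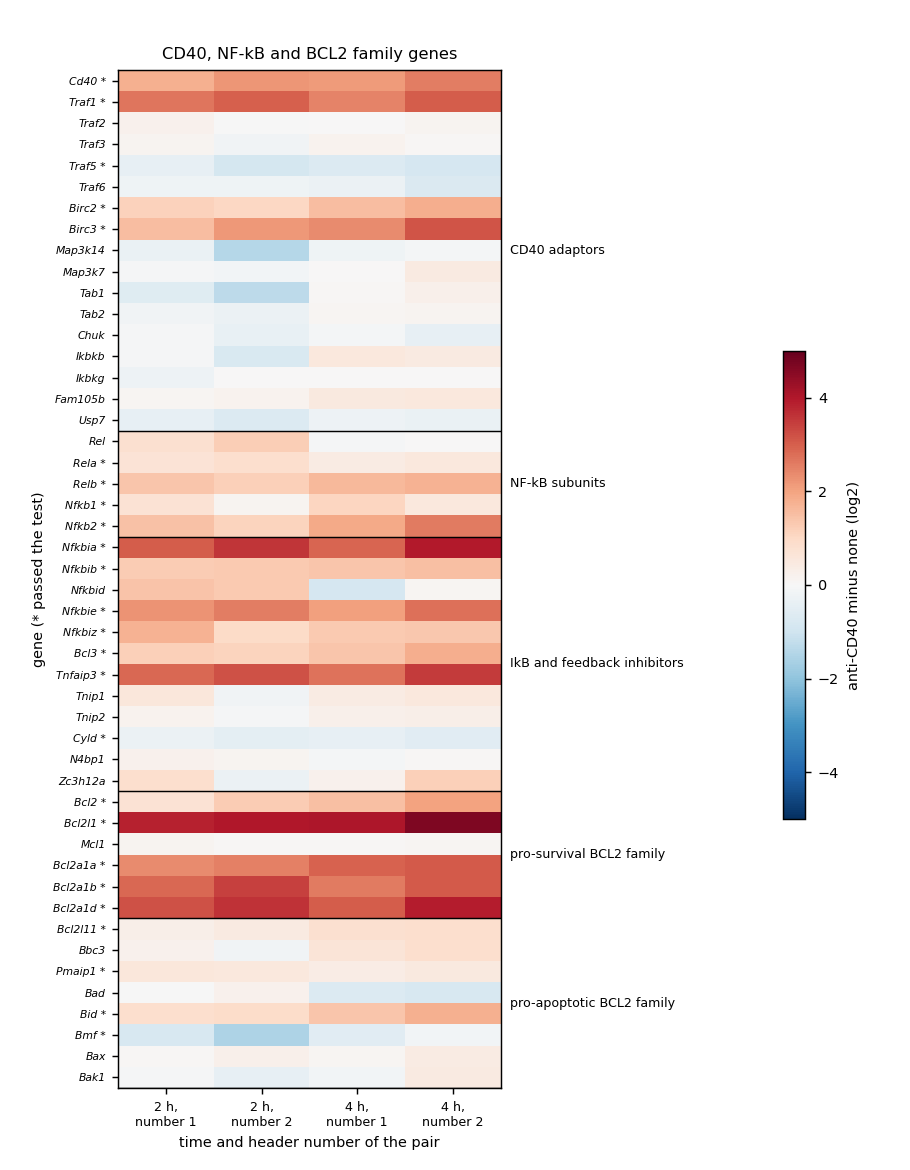
Anti-CD40 minus control difference (log2, colour scale from -5 to 5) in each of the 4 pairs of libraries, for all tested members of 5 lists. Asterisks mark genes that passed the test, and rows of Nfkbia, Tnfaip3, Bcl2l1 and the Bcl2a1 genes are red in all 4 pairs while Traf2, Traf3 and Mcl1 stay near 0.

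Among 23 other listed targets of NF-kB 19 rose, 1 fell (Tap1, a peptide transporter) and 3 did not pass (Stat5a, Psmb9 and Ccl4). This list, like the others, was chosen with earlier results of these data known, so its count describes the listed genes and is not independent support. Their median effect was 1.54. The fall of Tap1 was lost without the pairing term (adjusted p = 0.0804) and in 5 of 8 fits that left out 1 library (the 2 h control of pair 2, either 4 h control or either anti-CD40 library of 4 h). Ebi3, a subunit of the cytokines IL-27 and IL-35, had the largest rise among called genes whose mean log2 value reached 4. It lay at 1.92 to 2.11 in the 4 controls, at 5.57 and 6.32 after 2 h of anti-CD40 and at 7.61 and 8.37 after 4 h, a rise of 4.98 ± 0.36. Icam1, an adhesion molecule for T cells, rose by 3.01 ± 0.12 from a control range of 6.18 to 6.87. Cd83, which stabilises surface MHC class II, ranged from 8.86 to 9.42 without and from 11.02 to 11.90 with anti-CD40 and rose by 2.53 ± 0.16. Fas, the death receptor, rose by 2.06 ± 0.12, and Ccnd2, a cyclin of early G1, by 2.56 ± 0.14. Slamf1, a contact receptor for T cells, rose by 2.02 ± 0.11. Ccl22, a chemokine that attracts T cells, rose by 1.59 ± 0.37 although its arms overlapped. It lay at 0.41 to 2.06 in the controls, at 1.69 and 1.30 with anti-CD40 at 2 h and at 4.08 and 3.56 at 4 h. That call was lost without the pairing term (adjusted p = 0.0839) and without the anti-CD40 4 h library of pair 1.

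Most tested survival genes of the BCL2 family rose, among them near-identical copies. Of 6 tested pro-survival members 5 rose and Mcl1 did not pass, and the median was 2.86. Bcl2l2, also listed, was below the filter and not tested. Bcl2l1, which encodes BCL-XL, stood at 4.80, 4.60, 5.26 and 4.52 in the controls and at 8.64, 8.60, 9.29 and 9.18 with anti-CD40. The arms lay far apart and the rise was 4.13 ± 0.15, or 17.5-fold (adjusted p = 2.37e-06). Bcl2a1d (3.44 ± 0.18), Bcl2a1b (2.99 ± 0.14) and Bcl2a1a (2.73 ± 0.21) are near-identical copies whose reads may be split between them, so their separate values are uncertain. The count of 5 and the median treat these copies as separate members, although their rises may not be independent. Bcl2 itself rose by 1.37 ± 0.23 at low levels, from 1.22 to 1.81 without to 2.47 to 3.53 with anti-CD40. The pro-apoptotic members moved less. Of 8 tested, Bid rose by 1.22 ± 0.16, Bcl2l11 (BIM) by 0.60 ± 0.14 and Pmaip1 (NOXA) by 0.49 ± 0.14, Bmf fell by 0.76, and 4 did not pass (median 0.298). The Bcl2l11, Pmaip1 and Bmf calls were lost without the pairing term (adjusted p = 0.348, 0.101 and 0.543). They were also lost in 2, 6 and 3 of 8 fits that left out 1 library: for Bcl2l11 the 4 h control of pair 2 or the anti-CD40 4 h library of pair 1, for Bmf the latter or either 2 h control, and for Pmaip1 any library but the anti-CD40 library of pair 2 at 2 h and that of pair 1 at 4 h.

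Myc (chromosome 15, 61985391 to 61990374), a transcription factor that drives cell growth, rose 6.84-fold. Its values were 5.74, 5.11, 6.77 and 5.81 in the controls and 8.43, 8.62, 8.53 and 8.93 with anti-CD40. The arms did not overlap, the anti-CD40 libraries were closer to each other than the controls were, and the rise was 2.77 ± 0.24. Of its 10 tested network members no other rose. Mxd3 and Mxd4, which encode partners of MAX that repress, fell by 1.19 and 1.18, both with overlapping arms and both lost without the pairing term (adjusted p = 0.272 and 0.0516) or without the 4 h control of pair 2. Mxd4 also lost it without the anti-CD40 4 h library of pair 1. The median over the network was -0.183.

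Of 27 genes for ribosome biogenesis 15 rose and none fell (median 0.619). Gnl3, a nucleolar GTPase, rose by 1.76 ± 0.20, Nop16 by 1.53 ± 0.21, Nhp2 by 1.11 ± 0.19 and Rrs1 by 0.96 ± 0.11, all with arms apart. The count was 5 without the anti-CD40 4 h library of pair 1, 9 without the 4 h control of pair 2 and 6 without the pairing term. Among 19 genes for amino acids, polyamines and nucleotides 8 rose and 1 fell (median 0.439), but 1 rose without the pairing term. Srm, the spermidine synthase, rose by 1.44 ± 0.30 (adjusted p = 0.153 without the filter on low values) and Slc7a1, an arginine transporter, by 1.09 ± 0.19 (adjusted p = 0.316 without the pairing term), whereas the glutamine transporter gene Slc1a5 fell by 0.86. Of 16 glycolysis genes only Hk2, a hexokinase (1.58 ± 0.21), and Slc16a1, a lactate transporter (0.71 ± 0.13), passed, both as rises. Over all genes tested 11.1% rose.

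Most genes of the GC state fell after anti-CD40. Of 14 listed GC identity genes 9 fell and 2 rose, Lmo2 and Basp1, and the median was -0.994. Without the pairing term 5 fell. The rise of Lmo2 was lost without the pairing term (adjusted p = 0.112) and in 5 of 8 fits that left out 1 library (the 2 h control of pair 2, either 4 h control or either anti-CD40 library of 4 h), and that of Basp1 without the filter on low values (adjusted p = 0.077). S1pr2 (chromosome 9, 20962361 to 20976781), the sphingosine-1-phosphate receptor that holds GC B cells in the follicle, stood at 8.31, 8.63, 8.48 and 8.74 without stimulus. With anti-CD40 it stood at 6.21 and 6.37 at 2 h and at 5.06 and 5.43 at 4 h. It fell by 2.77, to less than the lowest control in all 4 libraries. Efnb1, an ephrin of GC B cells, fell by 2.48 from a control range of 6.23 to 6.57, Gcsam, a signalling adaptor of GC B cells, by 2.09, and the glycosyltransferase gene Gcnt3 by 3.08.

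Bcl6 (chromosome 16, 23965052 to 23988852), the repressor required for the GC state, fell by less than those genes. Its controls were at 7.91, 7.59, 8.17 and 8.38 and its anti-CD40 libraries at 7.46, 6.50, 7.38 and 7.54. The arms did not overlap, the fall was 0.79 with a standard error of 0.18 (adjusted p = 0.0147), and the effect was -0.77 at 2 h and -0.82 at 4 h. The call was lost without the pairing term (adjusted p = 0.0607), without the 4 h control of pair 2 and without the anti-CD40 4 h library of pair 1. Among 9 dark zone genes 7 fell and none rose (median -0.632), and 2 fell without the pairing term. Ccnd3, the cyclin of dark zone division, fell by 1.38 with arms apart. Cxcr4, the chemokine receptor of the dark zone, shows what the pairing does: its values were 9.18, 7.35, 8.80 and 6.89 in the controls and 8.57, 6.76, 8.02 and 6.21 with anti-CD40. The arms overlapped because pair 1 lay higher throughout, yet each anti-CD40 library lay below its partner (differences from -0.787 to -0.595), giving -0.67 ± 0.10 (adjusted p = 0.00183, and 0.614 without the pairing term). Foxo1, a factor of the dark zone program, did not pass (-0.17 ± 0.11).

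Receptors that position B cells changed in both directions. Of 18 trafficking receptors and RGS genes, which dampen G protein signals, 10 fell and 2 rose (median -0.62), and without the pairing term 5 fell. The falls also numbered 5 without the 4 h control of pair 2, and 6 without the 4 h control or the anti-CD40 4 h library of pair 1. S1pr1, the receptor for exit from lymphoid tissue, stood at 6.70, 6.30, 6.34 and 6.30 in the controls, at 3.88 and 3.56 after 2 h and at 2.24 and 2.03 after 4 h of anti-CD40. It fell by 3.48, or 11.2-fold, the largest fall among called genes whose mean log2 value reached 4, ranked as for Ebi3. S1pr4 fell by 1.38 (adjusted p = 0.0575 without the pairing term), Rgs1 by 2.41 and Rgs2 by 2.31, lower in every pair. Without stimulus Rgs1 stood lower at 4 h, at 6.84 and 7.07 at 2 h and 4.99 and 4.69 at 4 h. The receptors that rose were Cxcr5, for the follicle (1.20 ± 0.13), and Gpr183 (EBI2), for the follicle's edge (1.10 ± 0.22). Ccr7, for the T zone, had 5.54, 5.36, 7.31 and 6.56 without and 6.23, 6.04, 7 and 6.34 with anti-CD40 and did not pass (0.21 ± 0.20, adjusted p = 0.49).

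Transcription factors of B cell fate split as well. Of 13 tested factors 4 rose (Irf4, Batf, Id2 and Irf8) and 4 fell (Xbp1, Pou2af1, Id3 and Ikzf1). Without the pairing term the calls of Irf8, Pou2af1, Id3 and Ikzf1 were lost (adjusted p = 0.233, 0.0971, 0.364 and 0.53). They were also lost in 7, 3, 5 and 1 of 8 fits that left out 1 library: for Irf8 any but the anti-CD40 2 h library of pair 2, for Pou2af1 the 4 h control of pair 2 or either anti-CD40 library of 4 h, for Id3 the 2 h control of pair 1 or any 4 h library, and for Ikzf1 the anti-CD40 4 h library of pair 1. Irf4, which at high levels drives plasma cell formation, stood at 6.73, 5.14, 7.30 and 5.58 without and 9.27, 8.14, 9.53 and 8.66 with anti-CD40. Pair 1 was higher in both arms, the arms did not overlap, and the rise was 2.71 ± 0.15. Batf, a partner of IRF4 at DNA, rose by 3.40 ± 0.27 from a control range of 3.52 to 4.14. Xbp1, the secretory factor of plasma cells, fell by 1.15. Prdm1, the plasma cell repressor Blimp-1, was below the filter: it lay at 0.35, -1.44, 0.33 and 1.17 in the controls and at 1.24, -1.31, 1.66 and 0.10 with anti-CD40, with overlapping arms. Bach2, which restrains plasma cell formation, fell by 0.62 with overlapping arms, and its call was lost without the pairing term (adjusted p = 0.217).

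Surface molecules and ligands for contact with T cells came next. Of 16 listed TNF superfamily genes 9 were tested, and the others did not pass the filter on low values. Of the 9 tested, 5 rose and none fell (median 1.73). Tnfsf9, the ligand of 4-1BB, stood at 1.69, 2.43, 2.42 and 2.19 in the controls and at 6.16, 7.18, 6.67 and 7.05 with anti-CD40, a rise of 4.58 ± 0.19 with arms far apart. Cd70, the ligand of CD27, rose by 5.27 ± 0.57 from values of -3.60 to -1.45, which are near the low end of the files, so its size is uncertain. All 4 controls of Cd70 lay under the filter, so only its 4 anti-CD40 libraries brought it into the test and the count of 5. It was tested in only 4 of the 8 fits that left out 1 library. Tnf rose by 2.13 ± 0.16, and Tnfrsf13c, the BAFF receptor, by 1.73 ± 0.15. Tnfrsf8 (CD30) rose by 3.50 ± 0.77, with 1.31 at 2 h and 5.68 at 4 h, a call lost without the anti-CD40 4 h library of pair 1 and without the filter on low values (adjusted p = 0.237).

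Of 17 costimulation and adhesion genes 5 rose and 2 fell (median 0.248), beside shares of 11.1% and 12.3% over all genes tested. Cd69, an early activation marker, rose by 3.32 ± 0.20 with arms apart. Cd86, the ligand of CD28, stood at 9.01, 9.70, 8.48 and 8.30 in the controls and at 9.94, 10.34, 9.20 and 9.44 with anti-CD40. Its arms overlapped because both were lower at 4 h, but every pair moved up and the rise was 0.86 ± 0.15. March1, a ubiquitin ligase that removes MHC class II and CD86 from the surface, fell by 1.62. Of 11 MHC class II genes 1 rose and 1 fell, which is near the shares over all genes tested. Ciita, the master activator, fell by 1.23. Ctss, a protease of antigen processing, rose by 0.40, a call lost without the pairing term (adjusted p = 0.135). The Ctss call was also lost in 5 of 8 fits that left out 1 library (either 2 h control, the 4 h control of pair 2 or either anti-CD40 library of 4 h). Cd74 was the highest gene at 13.835 in the 4 libraries of header number 1 and 14.323 in the 4 of number 2, so its effect of 0.00 is a ceiling of the scale.

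Cytokine receptors and signalling genes moved in a mixed way. Of 16 interleukin receptor and JAK-STAT genes 7 rose and 4 fell. Il2ra, the alpha chain of the IL-2 receptor, rose by 3.02 ± 0.24, Il21r, the receptor of IL-21, by 1.28 ± 0.13 and the shared gamma chain gene Il2rg by 0.91 ± 0.11, while Il10ra fell by 1.42. Il12a, a cytokine chain that pairs with EBI3 to form IL-35, rose by 1.49 ± 0.13. Of 20 B cell receptor signalling genes 7 fell and none rose (median -0.216), among them Btk, Plcg2, Malt1, the phosphatase gene Inpp5d, and the inhibitory receptors Cd22 and Fcgr2b. Malt1, a protease on the way from the receptor to NF-kB, fell by 1.14 and Inpp5d by 1.18, each with arms apart. The call of Cd22 was lost without the anti-CD40 4 h library of pair 1 and without the filter on low values (adjusted p = 0.23). That of Plcg2 was lost without the pairing term (adjusted p = 0.118) and in 5 of 8 fits that left out 1 library (either 2 h control, the 4 h control of pair 2 or either anti-CD40 library of 4 h). Among 16 tested immediate early genes 6 rose (Jun, Junb, Ier3, Ier5, Dusp1 and Dusp2) and 4 fell (Fos, Egr1, Egr3 and Nr4a2). The calls of Jun, Dusp2, Fos, Egr3 and Nr4a2 were lost without the pairing term (adjusted p = 0.0827, 0.236, 0.18, 0.621 and 0.158) and each in at least 1 fit that left out a library. Those of Fos, Egr3 and Nr4a2 were lost without the 4 h control of pair 2, and those of Jun and Dusp2 without either 2 h control or the anti-CD40 2 h library of pair 1. Junb, an AP-1 subunit, rose by 1.71 ± 0.12 and Egr1, a zinc finger factor known as a target of receptor crosslinking, fell by 1.04.

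Genes of mitosis fell more often than they rose. Of 19 G2/M genes 13 fell and none rose (median -0.552), but 4 fell without the pairing term. The falls numbered 7 without the 4 h control of pair 2 or the anti-CD40 4 h library of pair 1, and 8 without either 2 h control. Plk1, a mitotic kinase, stood at 6.78, 7.37, 7.63 and 8.24 in the controls and at 6.04, 6.84, 6.64 and 7.23 with anti-CD40. The arms overlapped because values were higher at 4 h and in pair 2, and each pair moved down by 0.53 to 1.01, giving -0.82 ± 0.12 (adjusted p = 0.00143, and 0.0967 without the pairing term). Cenpf, a kinetochore protein, fell by 1.16 and Nek2, a centrosome kinase, by 1.03. Of 22 G1/S and replication genes 6 fell and only Cdk6 rose (median -0.259), and none of the 6 falls held without the pairing term. Cdk6 lost its call without the pairing term too (adjusted p = 0.0768) and without the anti-CD40 4 h library of pair 1. Of 14 quiescence genes tied to FOXO and KLF factors 7 fell and none rose (median -0.399), and 3 fell without the pairing term. Ccng2 (-1.34 ± 0.20), an atypical cyclin, Irs2 (-1.08 ± 0.14), an insulin signalling adaptor, and Klf6 (-0.97 ± 0.13), a zinc finger factor, were among them.

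**Figure D3:**
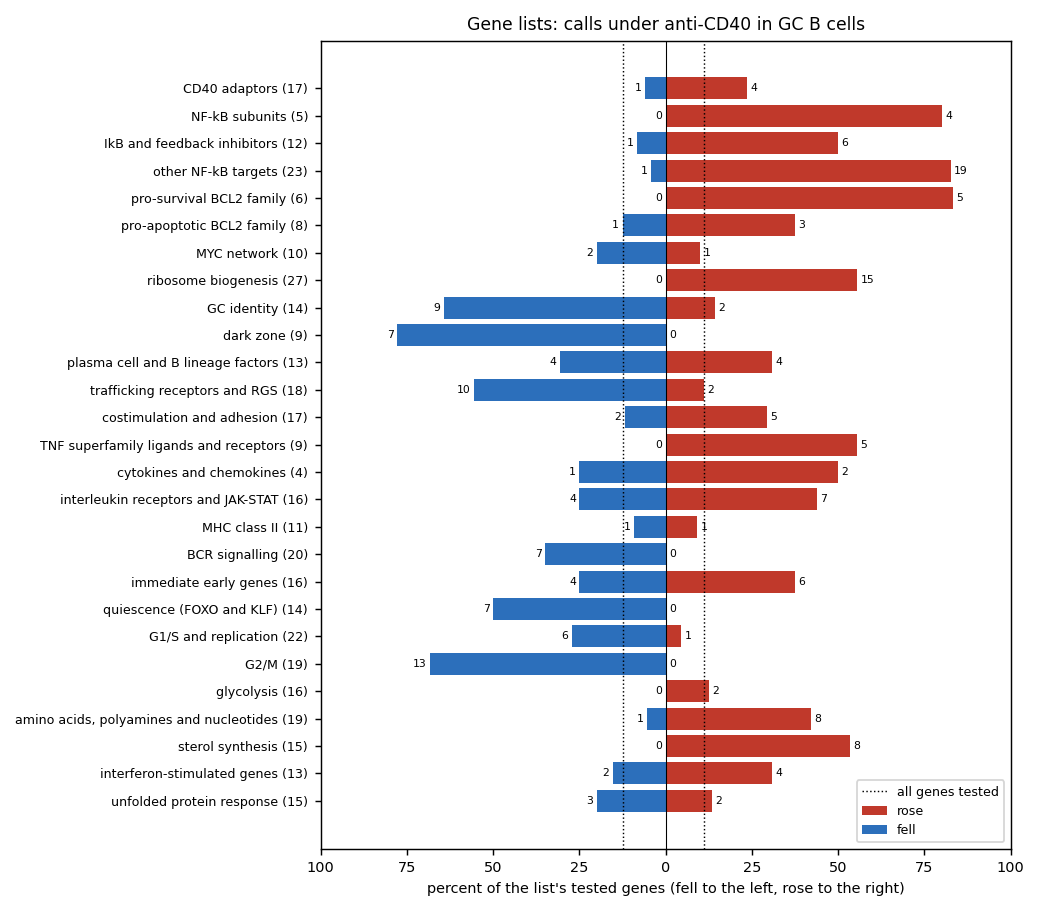
Percent of each list's tested genes that rose (right, red) or fell (left, blue) under anti-CD40 in GC B cells, with the number of genes at each bar and the number tested in brackets. Dotted lines mark the shares over all genes tested, 11.1% and 12.3%; the NF-kB, BCL2 and TNF superfamily lists extend to the right and the GC identity, dark zone and G2/M lists to the left.

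Several of the largest changes belong to genes of other functions. Mgll, which breaks down monoacylglycerol, rose by 4.20 ± 0.33 from 1.50 to 3.14 in the controls to 6.09 to 6.87. Fscn1, an actin bundling protein listed among the NF-kB targets, rose by 3.94 ± 0.66 (adjusted p = 0.139 without the filter on low values), Siah2, a ubiquitin ligase, by 3.45 ± 0.12 and Tspan33, a tetraspanin of activated B cells, by 3.18 ± 0.33. Among falls, B3gnt8, a glycosyltransferase, was at -2.46 ± 0.20, Chst15, a sulfotransferase, at -2.22 ± 0.12 and Phf19, a Polycomb component, at -2.09 ± 0.25. Cd2, an adhesion molecule, was at -2.09 ± 0.30 (adjusted p = 0.0598 without that filter) and Lig4, the ligase of end joining, at -1.98 ± 0.16. All of these had arms apart.

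The effect was tested at each time and between times. At 2 h 1214 genes were called (12.3%), 570 higher (5.75%) and 644 lower (6.5%). At 4 h 3134 were called (31.6%), 1489 higher (15%) and 1645 lower (16.6%). Genes that rose at both times numbered 463, which is 81.2% of the 2 h rises and 31.1% of the 4 h rises. For falls the number was 431, or 66.9% and 26.2%, and 4 genes were called in opposite directions. The difference between times itself passed for 460 genes (4.64%), 230 in each direction (2.32% each).

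Larger effects at 4 h were found for genes of several kinds. Fscn1 was 2.07 above control at 2 h and 5.82 at 4 h, a difference of 3.75 (adjusted p = 0.00395). Its anti-CD40 values were 6.54 and 5.06 at 2 h and 9.33 and 9.56 at 4 h against controls of 3.23 to 4.17. Tmem123, a cell surface mucin, had effects of 1.51 and 3.86, and Fcer2a (CD23), the low affinity IgE receptor, of 1.00 and 3.03. Ly75, an endocytic receptor, had effects of 0.93 and 3.04, and Abcc1, a drug and lipid exporter, of 0.07 and 2.14. For 16 of the 27 ribosome biogenesis genes the difference passed with the larger effect at 4 h, for none with the smaller, and the list's median went from 0.357 at 2 h to 1.24 at 4 h, beside -0.011 and -0.0347 over all genes. Batf (2.69 and 4.11) and Ebi3 (4.00 and 5.95) also differed, whereas Bcl2l1 (3.92 and 4.35), Nfkbia (3.28 and 3.43), Traf1 (2.83 and 2.76) and Myc (3.10 and 2.44) did not pass that test.

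Effects were lower at 4 h for other genes. Ephx1, an epoxide hydrolase, was at 5.01 and 5.11 after 2 h of anti-CD40 and at 2.72 and 1.22 after 4 h, against controls of 4.63 to 5.66, so that the effect went from 0.05 to -3.17. Eaf2, an elongation factor partner of germinal centres, went from 0.22 to -2.10 and Acp5, a phosphatase, from -0.49 to -3.52. S1pr1 (-2.78 and -4.18) and S1pr2 (-2.18 and -3.37) were already lower at 2 h and lower still at 4 h. Listed markers of other cells moved with these: the erythroid marker Beta-s, a beta globin, had an effect of 0.35 at 2 h and -1.77 at 4 h, the plasma cell markers Slpi and Igj of 0.56 and -1.41 and of -0.14 and -1.85, and the myeloid marker Cst3 of -0.36 and -1.71. Their part in the time difference was not tested.
None of the 52 chosen or described genes called in this test kept its call without the pairing term, where limma called 0 genes (700 at an unadjusted p under 0.05), and each lost it in at least 1 fit that left out a library. Acp5 lost it also without the filter on low values (adjusted p = 0.402). The count was 39 without the variance trend and robust moderation. It was 1 without the 2 h control of pair 1, 9 without that of pair 2, 140 without the 4 h control of pair 2, 12 without the 4 h anti-CD40 library of pair 2 and 2159 without the 2 h anti-CD40 library of pair 1.

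**Figure D4:**
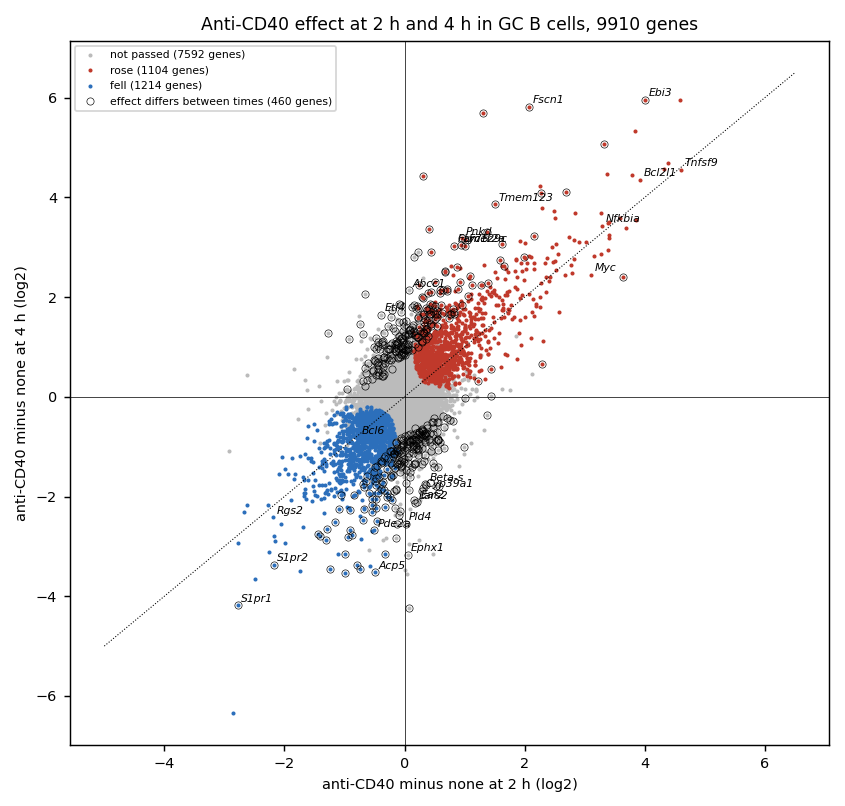
Anti-CD40 minus control difference at 2 h (horizontal) and 4 h (vertical) in GC B cells, log2, for the 9910 genes tested. Red and blue points rose or fell over both times, open circles mark the 460 genes whose effect differed between times, and the dotted line marks equal effects; Fscn1 lies above the line and Acp5 and Ephx1 below it.

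Naive B cells given the same stimulus, in 8 libraries, allowed a test of where the GC response differed. The effect differed between the cell types for 751 of 10596 genes tested (7.09%), 475 with a higher value in GC B cells (4.48%) and 276 with a lower one (2.6%). In the same fit, of 16 libraries, the naive effect was called for 4569 genes (43.1%). That count is not comparable with the 2318 genes of the GC test, which came from a separate fit of 8 libraries. Without the pairing term the difference was called for 151 genes. The difference between header numbers 2 and 1 ran in opposite directions in GC and naive cells (Pearson -0.935 over 9910 genes, a description across genes), so the pairing term was set within each.

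Bcl6 went in opposite directions: the effect was -0.79 in GC B cells and 1.55 in naive B cells, a difference of -2.34 (adjusted p = 0.000105). Cited2, a transcriptional cofactor, was at -1.22 and 1.56, and Gadd45b, a stress sensor, at -0.46 and 1.87. S1pr2 (-2.77 in GC, -0.32 in naive), Efnb1 (-2.48 and -0.38) and Rgs1 (-2.41 and -0.24) had lower effects in GC B cells. Il2ra rose in both but by less in GC B cells (3.02 and 5.01), as did Fas (2.06 and 3.84), Ccnd2 (2.56 and 3.71) and Ccl22 (1.59 and 5.79). The differences of Il2ra and Ccnd2 were lost without the pairing term (adjusted p = 0.173 and 0.141). The naive controls of Ccl22 were at -5.21, -4.54, -1.78 and 0.18, at or near the low end of the files, so its naive effect and the difference are uncertain in size. Of 24 other NF-kB targets tested here 8 responded with a lower effect in GC B cells and 4 with a higher one. Without the pairing term these numbered 5 and 1.

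For other genes the effect, taken with its sign, was higher in GC than in naive B cells. For some of these the naive change was a fall. Dtx3l, a ubiquitin ligase that works with PARP9, stood at 4.91 to 5.49 in the GC controls and at 7.46 to 8.61 with anti-CD40, a rise of 2.71 ± 0.13, beside 0.15 in naive cells. Bpgm, an enzyme of red cell glycolysis (2.03 and -0.37), Slfn2, a quiescence factor of lymphocytes (1.13 and -1.24), and Arid5a, an RNA-binding stabiliser of cytokine transcripts (1.53 and -0.79), differed likewise. Nfkbia (3.36 and 2.12), Batf (3.40 and 1.38), Cd69 (3.32 and 1.63), Junb (1.71 and 0.41) and Cd86 (0.86 and -0.35) had higher effects in GC B cells. Of these the calls of Nfkbia, Junb and Cd86 were lost without the pairing term (adjusted p = 0.207, 0.11 and 0.0864). Myc (2.77 and 1.57, adjusted p = 0.0225) and Cd40 (2.17 and 1.41, adjusted p = 0.0281) passed too, but lost the call without the pairing term (adjusted p = 0.085 and 0.346) and without the filter on low values (adjusted p = 0.0792 and 0.0847). Myc also lost it in 6 of 16 fits that left out 1 library, namely either GC control of pair 2 or any naive library of 4 h. Cd40 lost it in 8, namely either GC control of pair 2, either GC anti-CD40 library of 4 h, either naive control of 2 h, or the naive anti-CD40 library of pair 2 at 2 h or of pair 1 at 4 h. For 6 of 14 quiescence genes the difference passed with the GC effect above the naive one, for none below it, with list medians of -0.399 and -1.13, and without the pairing term for 3. For 6 of 19 G2/M genes it passed with the GC effect below the naive one, for none above it, and without the pairing term for 1. Bcl2l1 (4.13 and 4.89), Traf1 (2.79 and 3.0), Tnfaip3 (3.06 and 3.29) and Icam1 (3.01 and 3.46) did not pass the test of a difference.

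**Figure D5:**
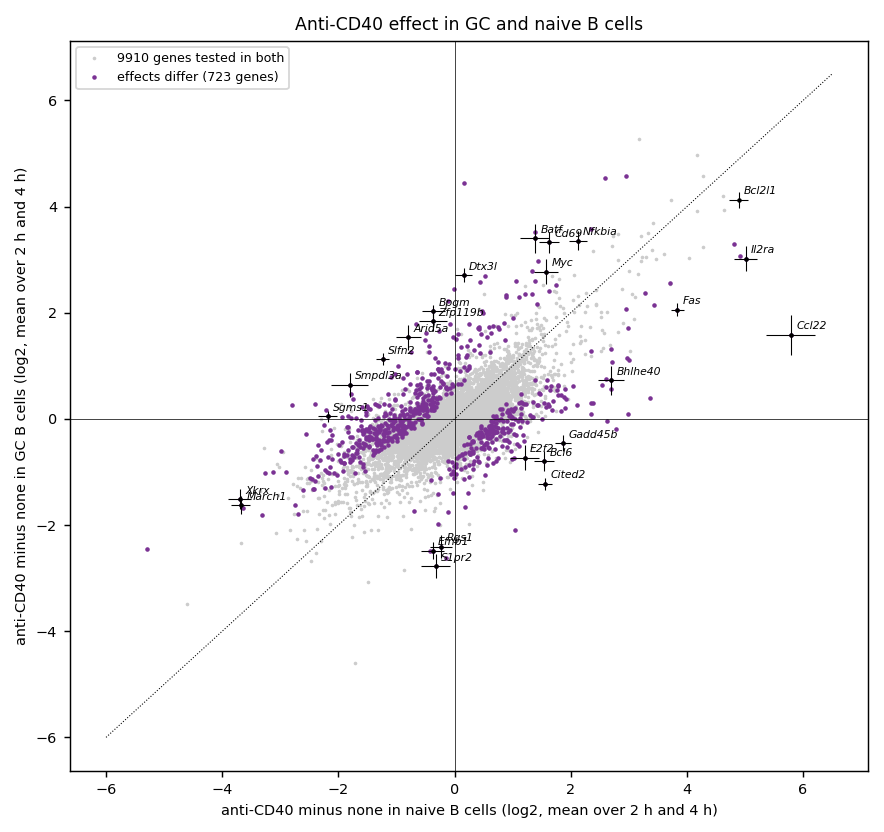
Anti-CD40 minus control difference in naive (horizontal) and GC B cells (vertical), log2, averaged over 2 h and 4 h, for 9910 genes tested in both. Purple points are the 723 of them whose effects differed, bars on labelled genes are standard errors and the dotted line marks equal effects; Dtx3l and Slfn2 lie above it and Bcl6, Cited2 and Ccl22 below it.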

How the data were processed

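Gene expression was measured by RNA-seq of GC B cells. Libraries were made with the SMART-Seq v4 kit after RNeasy Plus Mini extraction, per the labels' protocols. The submitters' processing notes name STAR 2.6.1a, the counter featureCounts (Subread 2.0.1), Trim Galore 0.6.5, FastQC 0.11.7, limma and the mm10 build. Their order, settings, annotation and use of strand are not given in the sources used here. The authors deposited log2 values per gene. Their scaling is not given in the sources used here and appears to go beyond library size, since Cd74 is identical in all GC libraries of a header number, so a log2 difference may not be a log2 ratio of read counts. Raw counts were not used here, so depth and counting error are unknown. The series holds 2 sets of libraries with different commonest low values. Only the set of 32 at -4.833, which holds the controls, was used.

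Effects were computed from the deposited values with limma 3.58.1 (trend and robust moderation, statmod 1.5.0, R 4.3.3). The model held time, stimulus and the header number as a block over 8 libraries, which left 4 residual degrees of freedom. The test between times used the 4 group means and the block (3 degrees), and that between GC and naive B cells 16 libraries with all terms within cell type (8 degrees). Genes were kept where 4 or more libraries exceeded a log2 value of 1. A call is a Benjamini-Hochberg adjusted p under 0.05 over all genes tested. The scripts were tested on simulated data.

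The pairing comes from the file headers. Deviations of same-numbered libraries from their group means correlated at 0.666 to 0.822 in all 6 pairs of groups, and the number was kept as a block. Offsets by header number in the deposited values would give such a correlation too, so it cannot show that the paired libraries share an origin. What the number marks is not given in the sources used here. Some deposited low values are also specific to a header number: Hrk lay at -4.983 in 10 libraries of number 1 and at -4.691 in 15 of number 2.

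Named genes were the 15 largest rises and falls with a mean log2 value reaching 4 and 1 direction in all pairs, 30 chosen genes, up to 5 members of each list by adjusted p, and the 8 largest differences in each direction of the other tests. Predicted genes, receptor segments and small RNAs were left out of the ranks by size. Further members were named after their values were seen, to complete small counts or to give the ends of a range. The libraries, gene lists and genes were chosen with earlier results of these data known. Promoters and their coordinates are from RefSeq (GRCm38.p6), and gene coordinates from GENCODE M21 (GRCm38). Alternatives changed the block, the filter, the moderation, the centring, the libraries in the fit and the model of time, and left out each library in turn. Some genes and 1 gene list are not reported here.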

Additional observations from a re-analysis of the deposited data

Results flagged for a closer look

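The anti-CD40 effect differed between 4 h and 2 h for 460 genes and between GC and naive B cells for 751. Each value below is the difference of the effects on the log2 scale and passed the test of that difference in limma.

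Higher effects at 4 h than at 2 h were found for Fscn1 (3.75), Tmem123 (2.36), Pnkd (2.23), Fam129c (2.20), Ly75 (2.11), Abcc1 (2.06), Etl4 (2.03) and Fcer2a (2.02). Lower effects at 4 h were found for Ephx1 (-3.22), Acp5 (-3.03), Pld4 (-2.57), Eaf2 (-2.32), Lars2 (-2.31), Cyp39a1 (-2.17), Pde2a (-2.16) and Beta-s (-2.12). Lars2, a mitochondrial tRNA synthetase gene, and Pld4, an endolysosomal enzyme gene, stood near 0 at 2 h (0.18 and 0.02) and at -2.13 and -2.55 at 4 h. None of these 16 calls held without the pairing term, and that of Acp5 was also lost without the filter on low values.

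In GC B cells the effect was higher than in naive B cells for Dtx3l (2.56), Smpdl3a (2.45), Bpgm (2.39), Slfn2 (2.37), Arid5a (2.33), Sgms1 (2.23), Zfp119b (2.21) and Xkrx (2.19). Sgms1, a sphingomyelin synthase gene, had an effect of 0.05 in GC and -2.18 in naive B cells. Xkrx was lower after anti-CD40 in both cell types, with -1.51 and -3.70. The effect was lower in GC B cells for Cited2 (-2.77), S1pr2 (-2.45), Bcl6 (-2.34), Gadd45b (-2.33), Rgs1 (-2.17), Il2ra (-1.99), Bhlhe40 (-1.96) and E2f2 (-1.93). Bhlhe40, a repressor of lymphocyte activation programs, was at 0.73 in GC and 2.69 in naive B cells, and E2f2, a cell cycle factor, at -0.73 and 1.20. Without the pairing term the calls of Zfp119b, Il2ra, Bhlhe40 and E2f2 were lost (adjusted p = 0.232, 0.173, 0.207 and 0.12).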

How the results depend on the processing

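With 2 libraries per stimulus and time and unknown depth, small effects and low genes are least certain. No named gene changed the sign of its effect between the main and an alternative run where either run called it. The balance of calls did turn: falls outnumbered rises in the main test (1104 higher, 1214 lower) but not without the replicate block. Without the replicate block the effect was called for 776 genes (419 higher, 357 lower), the time difference by limma for 0 (0 higher, 0 lower; 700 at an unadjusted p under 0.05) and the GC against naive difference for 151 (93 and 58). Of chosen or described genes called in the main test, 66 of 179 lost the effect call without the block, all 52 the time call and 42 of 72 the call between cell types, and 33, 2 and 20 lost these without the filter. The lost effect calls without the filter include Mxd3, Mxd4, Pmaip1, Ctss, Tap1, Fos, Egr3, Dusp2, Lmo2, Bst2, Ifit2 and Atf6 (adjusted p from 0.0554 to 0.195). With all 32 libraries of the set in the fit the counts were 4020 (1863 and 2157), 977 (485 and 492) and 2218 (1220 and 998). A separate stimulus term at each time gave 1852 falls. Without the filter the time difference was called for 699 (363 lower) and the cell difference for 319 (203 and 116). Without trend and robust moderation the time difference was called for 39 (22 and 17). Leaving out each library in turn gave 1077 to 2393 calls of the effect (510 to 1116 higher, 567 to 1277 lower). It gave 1 to 2159 calls of the time difference (1 to 1124 higher, 0 to 1035 lower, with 735 lower at an unadjusted p under 0.05 where limma called 0). It gave 381 to 825 calls of the cell difference (233 to 511 higher, 148 to 314 lower). The cell count was 490 and 464 without the GC 2 h controls of pairs 1 and 2 and 454 without the GC anti-CD40 4 h library of pair 1. It was 491 and 404 without the naive 4 h controls and 381 without the naive anti-CD40 4 h library of pair 1. The cause of these shifts was not tested. Of the same genes 52 of 179 lost the effect call in at least 1 omission, all 52 the time call and 17 of 72 the cell call.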

Other observations

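Sterol synthesis genes moved in 1 direction: of 15, 8 rose and none fell (median 0.485, beside -0.0191 over all genes), though 2 rose without the pairing term. Idi1, the isomerase that makes the second isoprenoid building block, rose by 1.20 ± 0.15, with controls at 4.45, 4.64, 5.03 and 5.44 and anti-CD40 libraries at 5.34, 5.77, 6.76 and 6.48. Its arms overlapped because all values were higher at 4 h. Mvd, a decarboxylase of the same pathway, rose by 0.98 ± 0.21 with arms apart.

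Of 13 interferon-stimulated genes tested 4 rose (Isg15, Bst2, Gbp2 and Gbp3) and 2 fell (Ifit2 and Stat2), with a median of 0.0408. Over all genes tested 11.1% rose and 12.3% fell. Gbp3, a guanylate-binding protein, rose by 2.36 ± 0.13 and Gbp2 by 1.90 ± 0.16. Ifit2, an antiviral RNA-binding protein, fell by 1.01 and Stat2, a transducer of type I interferon, by 0.89. Neither fall held without the pairing term, nor did the rise of Bst2 (adjusted p = 0.0801).

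Of 15 genes of the unfolded protein response 2 rose and 3 fell, beside shares of 11.1% and 12.3% over all genes tested. Hspa5, the chaperone BiP, rose by 0.43 ± 0.11 and Herpud1, of protein degradation at the endoplasmic reticulum, by 0.59 ± 0.14, while Hsp90b1, Eif2ak3 and Atf6 fell. Eif2ak3, which encodes the sensor PERK, fell by 1.42 with arms apart, and it was the only one of these 5 calls that held without the pairing term.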
